A study of Mus musculus with 4 samples.

Results

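The transcripts described here encode the enzymes of glycolysis, of the pentose phosphate pathway and of the citrate cycle in mouse alveolar macrophages (AM). The 44 members were taken by gene name, 17 for glycolysis, 7 for the pentose phosphate pathway and 20 for the citrate cycle with the pyruvate dehydrogenase complex and the citrate and malate users Acly and Me2. Of all 7236 names with counts, 36 were members; the other 8 members were not listed under their own name. Pkm and the older symbol Pkm2 name the same pyruvate kinase gene, which was listed as Pkm2. Serial analysis of gene expression (SAGE) was used, in which a short tag next to a cut site of the restriction enzyme NlaIII stands for a transcript. The Day 21 AM group had 2 libraries, from wild-type BALB/c mice that carried lung metastases 21 days after an intravenous injection of BNL, a mouse hepatocellular carcinoma cell line. The Pre AM group had 2 libraries, from untreated wild-type BALB/c mice with no metastasis. The labels describe no sham injection, so injection and metastasis cannot be told apart. Whether replicates stem from separate animals or pools is not given either, so the p-values rest on a spread between libraries that may be technical.

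Glycolysis breaks glucose down to pyruvate, and lactate dehydrogenase can turn that pyruvate into lactate. The pentose phosphate pathway branches off at glucose phosphate, makes NADPH in its oxidative steps and rearranges sugars in its non-oxidative steps, while the citrate cycle oxidises acetyl units in mitochondria. Macrophages are known to shift toward glycolysis when activated by bacterial products, and resident alveolar macrophages are known for their use of fatty acids and mitochondrial respiration.

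A gene's counts were spread over several NlaIII sites, and the tags that held most counts of the leading members are printed with the cut site in capitals, because later results turn on which of them was read. Positions are those of the match to GENCODE M21 transcripts (GRCm38).
Aldoa, last site, coding part of exon 10 of 10, chr7:126795406-126795430, minus strand: CATGcctactaaccagagctgaact
Pgd, last site, 3' UTR in exon 13 of 13, chr4:149150291-149150315, minus strand: CATGcgtgtgggctctgctgtcctc
Idh1, last site, 3' UTR in exon 9 of 9, chr1:65158761-65158785, minus strand: CATGggcaataatgggagctgtacc
Ldha, last site, 3' UTR in exon 8 of 8, chr7:46855601-46855625, plus strand: CATGccaaataaaaccttgaacagt
Ldha, upstream site, coding part of exon 3 of 8, chr7:46849045-46849069, plus strand: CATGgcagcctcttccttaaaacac
Taldo1, last site, 3' UTR in exon 8 of 8, chr7:141402854-141402878, plus strand: CATGgcttgtgacgaatgaatcttg
Taldo1, upstream site, coding part of exon 6 of 8, chr7:141401933-141401957, plus strand: CATGggcgcctccttccgcaacacg
Pgls, last site, 3' UTR in exon 5 of 5, chr8:71596201-71596225, plus strand: CATGcacgccgtgggcacttcgggt
Pgls, upstream site, coding part of exon 1 of 5, chr8:71592372-71592396, plus strand: CATGctagcccgagacctgcccgcc
Pfkl, coding part of exon 1 of 22, chr10:78009660-78009684, minus strand: CATGgctaccgtggacctggagaaa
Pfkp, 3' UTR in exon 22 of 22, chr13:6581191-6581215, minus strand: CATGtgtatgtcttgtgggattaaa
Mdh2, coding part of exon 1 of 9, chr5:135778735-135778759, plus strand: CATGctgtccgctctcgcccgtcct
The first 3 tags held nearly all counts of their genes. The pairs of Ldha, Taldo1 and Pgls are a tag at the last site and, at a comparable or higher count, a tag further upstream on the transcript used. The upstream tags of Ldha and Pgls are also at the last site of another transcript of their gene, that of Taldo1 is not. The upstream Ldha tag matches 8 genes, so its counts need not be Ldha. The Pfkl and Mdh2 tags lie in the first exon and not at the last site. SAGE by design reads a transcript once, at its last site, so counts were not divided by length when levels of genes were compared.

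The Day 21 AM libraries held 1783814 and 1630776 tags, and the Pre AM libraries 1962569 and 2198563. No tag had a count of 1, so a gene listed at 0 may have tags read once. Replicates did not in every case resemble each other more closely than they resembled libraries of the other group. Pearson's r of log2 CPM was 0.896 within Day 21 AM, 0.885 within Pre AM and 0.790 to 0.917 across groups, over genes, which are not independent. CPM are counts brought to a common library size by the TMM method. Of the 16 alveolar macrophage markers 13 were listed, all with counts, and 0 of the 12 tested were called. Their summed level, mostly Chi3l3, Cd9 and Ear2, was 2802 and 5085 CPM in Day 21 AM libraries against 2204 and 4580 CPM in Pre AM libraries. Krt79 (90.8 and 20.6 CPM against 328.9 and 210.0 CPM in Pre AM), Itgax, Siglec5 and Mrc1 were lower in both Day 21 AM libraries. So were 16.0% of all genes tested, and the groups overlapped in the other listed alveolar macrophage markers. Marco was nearly absent, at 0 CPM in 3 libraries and 0.98 CPM in Pre AM replicate 1. The 10 listed markers of monocyte-derived or interstitial macrophages summed to 2192 and 3322 CPM in Day 21 AM against 57.4 and 129.9 CPM in Pre AM. Most of the Day 21 AM sums was Apoe, at 1735 and 2714 CPM, against 28.5 and 78.5 CPM in Pre AM. Of the 7 tested, 5 were called higher, beside 0.671% of all genes tested. Neutrophil markers summed to 76.0 and 279.8 CPM in Day 21 AM and 9.33 and 158.5 CPM in Pre AM, and lung epithelial markers to 33.1 and 44.9 CPM against 82.5 and 153.6 CPM. The listed T and NK cell, B cell and endothelial markers were at 0 in every library. Of 8 hepatocyte or hepatocellular carcinoma markers 3 were listed. H19 was at 0, and Afp had counts in Pre AM replicate 2 alone (1.23 CPM). Trf was at 40847 and 40939 CPM in Day 21 AM and 41413 and 26550 CPM in Pre AM. Red cell markers summed to 23.4 and 61.9 CPM in Day 21 AM and 32.9 and 149.1 CPM in Pre AM. Cycling cell markers summed to at most 7.35 CPM. The part of these other cells in the enzyme levels was not tested, and fewer cells of a type and less RNA per cell cannot be told apart.

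No enzyme transcript passed the test between the groups. Of the 44 members, 26 had enough counts to be tested, and 0 of the 26 had an adjusted p under 0.05 with edgeR's quasi-likelihood test, beside 0.739% of all 2979 genes tested (0.671% higher and 0.0671% lower). Pfkl alone had an unadjusted p under 0.05, beside 5.64% of all genes. With DESeq2 0 members were called too. In 11 of the 26 members the values of the groups did not overlap, 7 higher and 4 lower in Day 21 AM, against 31.2% of all genes (15.2% higher and 16.0% lower). With 2 libraries a group an exact permutation test of any single gene cannot give a p below 0.333. The test's 95% interval reached a 2-fold difference for each of the 26 members, so a difference of that size was not excluded for any of them. The log2 change (Day 21 AM over Pre AM) was positive in 18 members and negative in 8, with a median of 0.13, against a median of -0.07 and 45.6% positive over all genes tested. These medians are read beside the replicate spread. The libraries' median levels varied by 0.23 for glycolysis, 0.30 for the pentose phosphate pathway and 0.15 for the citrate cycle (log2, SD between replicates).

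**Figure D1:**
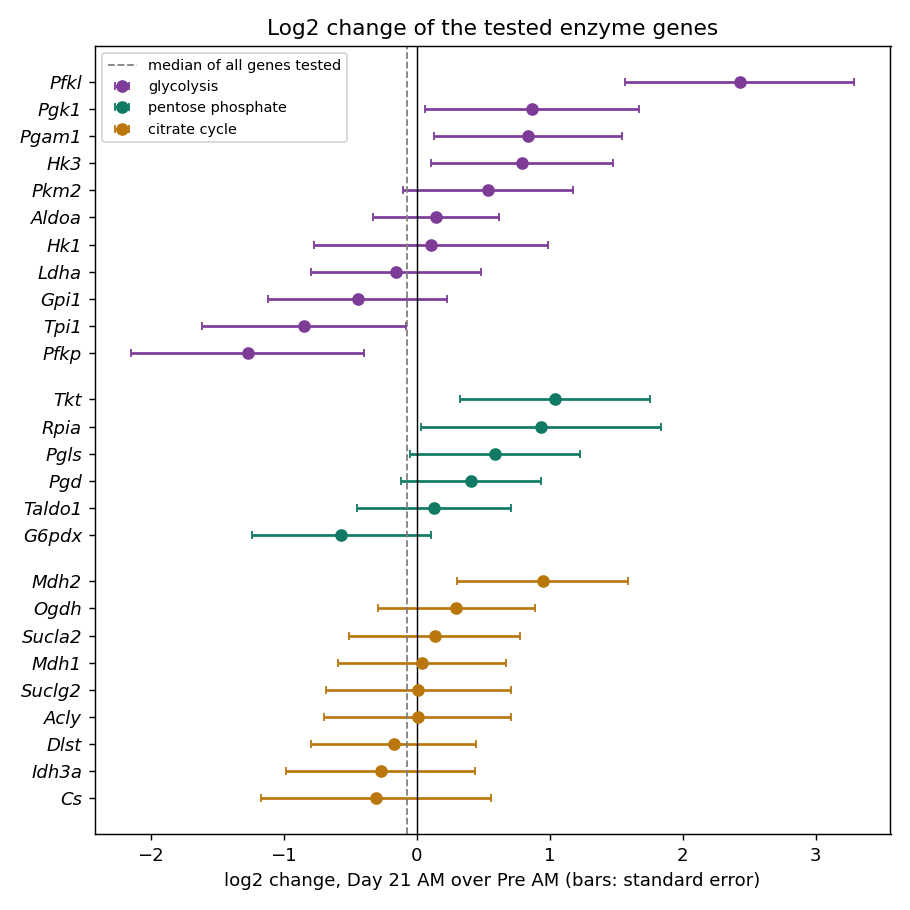
Log2 change (Day 21 AM over Pre AM, horizontal axis) of each of the 26 tested enzyme genes, as points with standard errors as bars, by pathway and size; the dashed line is the median of all genes tested (-0.07). The points run from -1.27 for Pfkp to 2.43 for Pfkl, and most bars reach or come close to 0.

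In glycolysis the most abundant transcript by far was Aldoa, the aldolase that splits fructose bisphosphate, and the difference with the lowest p was that of Pfkl, the liver-type subunit of phosphofructokinase. The 11 tested glycolytic genes had a median log2 change of 0.15, with 7 positive and 4 negative. Groups did not overlap in 7 of them, 4 higher and 3 lower in Day 21 AM, beside 31.2% of all genes tested (15.2% higher and 16.0% lower). Their summed level was 9986 and 17243 CPM in Day 21 AM and 10677 and 13880 CPM in Pre AM, nearly all of it Aldoa. Without Aldoa the sum was 322.8 and 391.6 CPM in Day 21 AM, against 236.6 and 382.9 CPM in Pre AM. In both sums the replicates of a group differed by more than the group means did.

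Glucose enters the pathway through the hexokinases. Hk3, a hexokinase found mainly in white blood cells, was at 44.6 and 37.0 CPM in Day 21 AM and 27.5 and 19.6 CPM in Pre AM. Both Day 21 AM values lay above both Pre AM values, with a log2 change of 0.79 ± 0.68 (SE; edgeR adjusted p = 0.999). Hk1, the widespread hexokinase, was at 9.71 and 4.27 CPM in Day 21 AM and 11.3 and 2.04 CPM in Pre AM, and the groups overlapped. In both groups replicate 1 was the higher library for Hk1 and for Hk3. The isomerase Gpi1, which turns glucose phosphate into fructose phosphate, was at 34.3 and 27.1 CPM in Day 21 AM, below both Pre AM values of 37.3 and 46.2 CPM (log2 change -0.44 ± 0.67, adjusted p = 0.999).

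Phosphofructokinase catalyses the committed step of glycolysis, and its liver-type (Pfkl) and platelet-type (Pfkp) subunits lay on opposite sides. Pfkl had 21 and 36 counts in Day 21 AM, or 11.998 and 25.6 CPM, against 2 and 14 counts in Pre AM, or 0.98 and 5.72 CPM. The Day 21 AM libraries were the higher ones, with a log2 change of 2.43 ± 0.86, an unadjusted p of 0.0093 and an adjusted p of 0.432 (edgeR). Without Pre AM replicate 2 the log2 change of Pfkl was 4.18 with an adjusted p of 0.0168 (edgeR), and the remaining Pre AM library held 2 counts. With any of the other 3 libraries left out it was 1.70 to 2.94, and over all alternatives its adjusted p ran from 0.0168 to 0.9998. Its exon 1 tag, printed above, had 6 and 26 counts in Day 21 AM and 0 and 4 in Pre AM, and a tag in exon 22 had 9 and 0 counts in Day 21 AM and 2 and 8 in Pre AM. Pfkp had 4 and 7 counts in Day 21 AM against 18 and 21 in Pre AM, or 2.29 and 4.98 CPM against 8.84 and 8.58 CPM. Its log2 change was -1.27 ± 0.88 (edgeR adjusted p = 0.999), and the groups did not overlap. The 3' UTR tag of Pfkp had 4 and 0 counts in Day 21 AM against 15 and 14 in Pre AM. Its exon 9 tag had 0 and 7 counts in Day 21 AM and 3 and 7 in Pre AM.

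Aldoa had 9663 and 16851 CPM in Day 21 AM and 10440.1 and 13498 CPM in Pre AM, and ranked 9 among all tested genes by mean level. It took 0.948% (exact 95% interval 0.934 to 0.962) and 1.45% (1.43 to 1.47) of the Day 21 AM libraries. In the Pre AM libraries it took 1.08% (1.07 to 1.10) and 1.503% (1.486 to 1.519). These intervals cover counting error only, and the replicates of each group lay further apart than they allow. The groups overlapped, with a log2 change of 0.15 ± 0.47. The brain-type aldolase Aldoc had 2 and 0 counts in Day 21 AM and 2 and 2 in Pre AM, under the count filter.

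The steps between the triose phosphates and pyruvate were less abundant. Tpi1, which interconverts the triose phosphates, was at 8.57 and 5.70 CPM in Day 21 AM, below both Pre AM values of 10.3 and 15.5 CPM (log2 change -0.85 ± 0.77). Pgk1, the first ATP-forming kinase of the pathway, was at 6.86 and 12.1 CPM in Day 21 AM, above both Pre AM values of 5.40 and 4.90 CPM (0.86 ± 0.80). Pgam1, the phosphoglycerate mutase, was at 34.3 and 21.4 CPM in Day 21 AM, above both Pre AM values of 15.2 and 15.9 CPM (0.84 ± 0.71). For each of these 3 genes the adjusted p was 0.999 (edgeR), and tags of Pgk1 and Pgam1 also match other genes. The Pgk1 tag that matches Pgk1 alone, at the last site, had 2 and 0 counts in Day 21 AM against 6 and 7 in Pre AM, the opposite direction to the sum.

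Pyruvate is made by pyruvate kinase and turned into lactate by lactate dehydrogenase. Pkm2 had 87.4 and 119.6 CPM in Day 21 AM and 46.6 and 96.0 CPM in Pre AM, with overlapping groups and a log2 change of 0.53 ± 0.64. Ldha, the muscle-type lactate dehydrogenase subunit, had 82.8 and 133.9 CPM in Day 21 AM and 73.1 and 168.3 CPM in Pre AM (-0.16 ± 0.64). For Ldha, replicate 2 was the higher library in both groups. The heart-type subunit Ldhb had 5 and 2 counts in Day 21 AM and was listed at 0 in both Pre AM libraries, under the count filter.

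**Figure D2:**
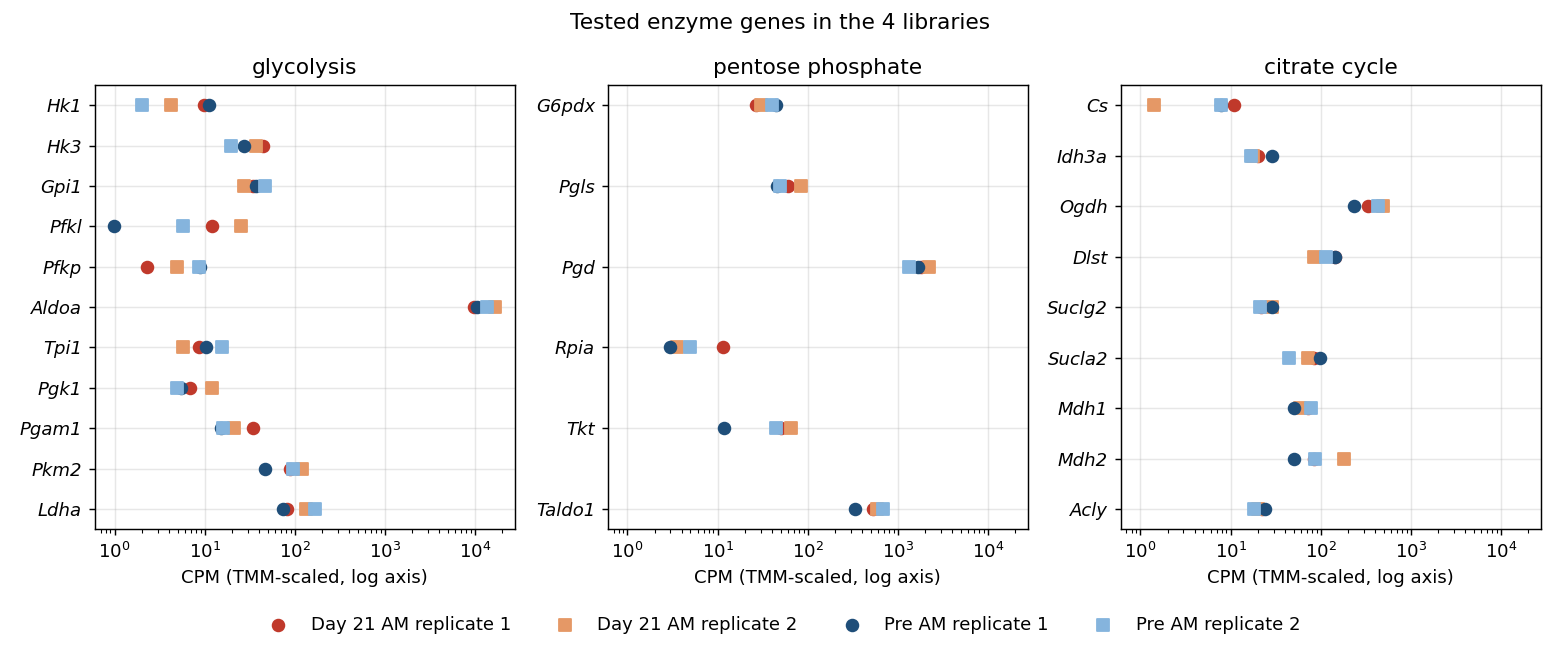
Level of each tested enzyme gene (CPM, TMM-scaled, log axis) in the 4 libraries, with Day 21 AM replicates in red and orange and Pre AM replicates in dark and light blue, by pathway. Aldoa stands at 9663 CPM or above and Pgd between 1323 and 2186 CPM, while the points of the 2 groups interleave for most other genes.

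In the pentose phosphate pathway 5 of 6 tested genes had a positive log2 change, and G6pdx, the gene of its entry step, had the negative one. The median was 0.50, and groups did not overlap in 4 genes, 3 higher and 1 lower in Day 21 AM, beside 31.2% of all genes tested. None passed the test, beside 0.739% of all genes. The summed level was 2480 and 2951 CPM in Day 21 AM, above both Pre AM values of 2128 and 2140 CPM, and most of it was Pgd.

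G6pdx, the dehydrogenase that opens the pathway and forms its first NADPH, was at 26.9 and 30.6 CPM in Day 21 AM, against 44.7 and 40.5 CPM in Pre AM. The groups did not overlap, with a log2 change of -0.57 ± 0.67 (edgeR adjusted p = 0.999). Most of its counts, 47 and 41 in Day 21 AM and 82 and 87 in Pre AM, came from a coding tag that also matches the near-identical gene G6pd2, so they cannot be told apart. Pgls, the lactonase that follows, was at 60.0 and 84.0 CPM in Day 21 AM, above both Pre AM values of 46.1 and 49.4 CPM (0.59 ± 0.64, adjusted p = 0.999). Pgd, the dehydrogenase of the second NADPH-forming step, was at 1801 and 2186 CPM in Day 21 AM and 1685 and 1323 CPM in Pre AM. Both Day 21 AM libraries were higher, with a log2 change of 0.41 ± 0.53 (adjusted p = 0.999), and Pgd ranked 64 among all tested genes.

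Pre AM replicate 1 was the lowest library for each of the 3 tested non-oxidative genes. Tkt, the transketolase that moves carbon units between sugars, was at 50.3 and 65.5 CPM in Day 21 AM and 11.8 and 44.1 CPM in Pre AM. Its log2 change was 1.04 ± 0.71 (edgeR adjusted p = 0.999), with Pre AM replicate 1 far below the other 3 libraries; with Pre AM replicate 1 left out it was 0.39. Taldo1, the transaldolase, was at 530.2 and 582 CPM in Day 21 AM, between the Pre AM values of 338 and 677 CPM (0.13 ± 0.58). Rpia, the ribose phosphate isomerase, was at 11.4 and 3.56 CPM in Day 21 AM and 2.95 and 4.90 CPM in Pre AM (0.93 ± 0.90). The epimerase Rpe had 0 counts in 3 libraries and 2 counts in Pre AM replicate 2.

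In the citrate cycle the groups overlapped in all 9 genes tested under their own name, while 31.2% of all genes tested did not overlap. The groups did not overlap in Me2, found under a locus label, nor in the most counted tag that matches Ogdh alone (both below). The median log2 change of the 9 was 0.01, with 6 positive and 3 negative and a range of -0.31 to 0.95. The summed level was 792 and 953 CPM in Day 21 AM and 668 and 819 CPM in Pre AM. Ogdh as listed made up 334 and 489 CPM of it in Day 21 AM and 235 and 434 CPM in Pre AM. Most Ogdh counts came from a tag that does not match Ogdh (below), so these sums are uncertain. The group means of log2 CPM lay 0.22 apart in the median citrate cycle gene, less than the 0.38 between the Day 21 AM replicates and the 0.62 between the Pre AM replicates. In the median glycolytic gene they lay 0.72 apart, beside 0.69 between Day 21 AM replicates and 0.47 between Pre AM replicates. For the pentose phosphate genes the distance was 0.56, beside 0.33 and 0.46, and over all genes tested it was 0.45, beside 0.61 and 0.77.

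Citrate synthase, Cs, had 19 and 2 counts in Day 21 AM and 16 and 19 in Pre AM, so a single library stood apart. Idh3a, the catalytic subunit of the NAD-dependent isocitrate dehydrogenase, was at 19.997 and 17.8 CPM in Day 21 AM and 29.0 and 16.8 CPM in Pre AM. Dlst, the core transferase of the oxoglutarate dehydrogenase complex, was at 142.8 and 84.7 CPM in Day 21 AM and 143.3 and 113.6 CPM in Pre AM. All 3 genes had a negative log2 change, -0.31 ± 0.86, -0.27 ± 0.71 and -0.17 ± 0.62, each smaller than its error.

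Succinyl-CoA ligase has alternative beta subunits for GDP and ADP. Suclg2, the GDP-dependent one, was at 21.7 and 28.5 CPM in Day 21 AM and 28.5 and 21.2 CPM in Pre AM, with a log2 change of 0.01 ± 0.69. Sucla2, the ADP-dependent one, was at 84.6 and 72.6 CPM in Day 21 AM and 99.2 and 44.1 CPM in Pre AM (0.14 ± 0.64). The mitochondrial malate dehydrogenase Mdh2 was at 84.0 and 180.1 CPM in Day 21 AM and 51.0 and 85.8 CPM in Pre AM. Its log2 change of 0.95 ± 0.65 (edgeR adjusted p = 0.999) was the highest of the cycle. It rested on Day 21 AM replicate 2, without which it was 0.33. The cytosolic Mdh1 was at 72.0 and 59.1 CPM in Day 21 AM and 50.1 and 77.2 CPM in Pre AM (0.04 ± 0.63). Acly, which splits exported citrate for lipid synthesis, was at 22.3 and 19.9 CPM in Day 21 AM and 24.1 and 17.98 CPM in Pre AM (0.01 ± 0.70).

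Ogdh, the first component of the oxoglutarate dehydrogenase complex, was listed at 334 and 489 CPM in Day 21 AM and 235 and 434 CPM in Pre AM (log2 change 0.30 ± 0.59). Most of those counts came from a tag that matches transcripts of 21 genes, Ogdh not among them, with 346 and 403 counts in Day 21 AM and 372 and 837 in Pre AM. Of the tags that match Ogdh alone, the most counted one lies in the 3' UTR in exon 23 of 23, chr11:6356174-6356198, plus strand.
Ogdh, most counted own tag: CATGgggtatttagaggactttagc
It had 231 and 256 counts in Day 21 AM, above the 102 and 213 counts in Pre AM. With tags that match a single gene only, Ogdh had a log2 change of 1.19 ± 0.60 (edgeR adjusted p = 0.883). The level listed for Ogdh is therefore uncertain.

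The 10 members below the count filter were Aldoc, Ldhb, Rpe and 7 genes of the citrate cycle and its feeder complex. The 4 pyruvate dehydrogenase complex genes were all among them. Pdha1 and Pdhb, the subunits of its first component, had 7 and 0 and 6 and 4 counts in Day 21 AM, against 3 and 5 and 5 and 13 counts in Pre AM. Dlat and Dld, its other catalytic components, had 0 and 5 and 2 and 0 counts in Day 21 AM, against 6 and 3 and 0 and 7 in Pre AM. The fumarase gene Fh1 had 6 and 6 counts in Day 21 AM and 2 and 4 in Pre AM. Idh3b had 4 and 6 counts in Day 21 AM against 0 and 11 in Pre AM, and Suclg1 had 6 and 11 against 3 and 11. With no count filter all 36 members with counts were tested, and 0 were called.

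Of the 8 members with no name of their own in the tables, Pkm was listed as Pkm2, and 6 more were found by matching tags to transcripts, a search made after the values had been seen. Idh1, the cytosolic isocitrate dehydrogenase that forms NADPH, was listed under the label NADP+ together with Idh2, its mitochondrial counterpart. The Idh1 tags gave 1294 and 1067 CPM in Day 21 AM and 1473 and 845 CPM in Pre AM. The groups overlapped, and with genes named by RefSeq accession Idh1 had a log2 change of 0.03 ± 0.55 (edgeR adjusted p = 0.998). It was thus more abundant than any tested citrate cycle gene, while Idh2 had only 7 and 10 counts in Day 21 AM and 9 and 9 in Pre AM. Idh3g, a regulatory subunit of the NAD-dependent enzyme, was listed as NAD+ with 5 and 14 counts in Day 21 AM and 11 and 29 in Pre AM.

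Me2, the mitochondrial malic enzyme, was listed under a locus label at 378 and 399 CPM in Day 21 AM, above both Pre AM values of 241 and 169 CPM. Its log2 change was 0.92 ± 0.59 (edgeR adjusted p = 0.999), the groups did not overlap, and the change stayed between 0.71 and 1.20 with any 1 library left out. Eno1, the enolase, was found under a locus label at 213 and 142 CPM in Day 21 AM and 176 and 172 CPM in Pre AM, with tags shared with its copy Eno1b. Gapdh, the dehydrogenase that starts the ATP-yielding phase of glycolysis, was found in 8 tags under 4 pseudogene or locus labels. Those tags summed to 192 and 174 CPM in Day 21 AM and 105 and 269 CPM in Pre AM, and none of them matched a single gene. No counted tag of Hk2 was found.

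Other genes of these pathways, were taken as a list of 67 names. Of these, 12 were tested, 18 were under the filter, 16 were listed with no count and 21 were not a listed name. None of the 12 was called, 9 had a positive and 3 a negative log2 change, and the median was 0.28, against -0.07 over all genes. The groups did not overlap in 1 of the 12, beside 31.2% of all genes tested. Slc16a3, the lactate exporter, was at 96.0 and 241.4 CPM in Day 21 AM and 96.2 and 107.9 CPM in Pre AM, so 1 Day 21 AM library stood apart. Sdhc, a membrane anchor of succinate dehydrogenase, was likewise high in Day 21 AM replicate 2, at 93.1 and 248.5 CPM in Day 21 AM against 121.7 and 101.3 CPM in Pre AM. Sdha, the flavoprotein of the same enzyme, was at 152 and 79.7 CPM in Day 21 AM and 222 and 104.6 CPM in Pre AM. Slc25a11, the oxoglutarate and malate carrier, was the most abundant of the list at 3679 and 2143 CPM in Day 21 AM and 2905 and 1373 CPM in Pre AM. The glucose transporter Slc2a1 was at 9.14 and 7.83 CPM in Day 21 AM and 4.42 and 7.76 CPM in Pre AM.

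Within a library the ratio of 2 enzyme counts does not depend on library scaling, but it does depend on which tags were read. Ratios of 8 pairs were taken after the values had been seen, so they are descriptions with no test, and 7 had counts in every library. The ratio of Pfkl to Pfkp was 5.25 (95% counting interval 1.77 to 21.0) and 5.14 (2.26 to 13.7) in Day 21 AM. In Pre AM it was 0.111 (0.0125 to 0.464) and 0.667 (0.314 to 1.37), so Pfkl outnumbered Pfkp in both Day 21 AM libraries and in neither Pre AM library. The separate tags of Pfkl and of Pfkp did not all show that difference (above). Ratios of gene pairs outside these pathways were not taken. The ratio of Pgd to G6pdx was 67.1 (50.3 to 91.5) and 71.4 (52.9 to 98.9) in Day 21 AM, against 37.7 (30.6 to 47.0) and 32.7 (26.8 to 40.4) in Pre AM. Replicates lay within each other's intervals for that pair, and the groups did not overlap. Nearly all Pgd counts came from its last site, but most G6pdx counts from an upstream tag that also matches G6pd2. The ratio of Taldo1 to Tkt was 10.5 (8.47 to 13.3) and 8.88 (7.15 to 11.1) in Day 21 AM, against 28.7 (19.1 to 45.1) and 15.4 (12.6 to 18.8) in Pre AM. For Mdh2 to Mdh1 it was 1.17 and 3.05 in Day 21 AM and 1.02 and 1.11 in Pre AM, with Day 21 AM replicate 2 alone standing apart. The ratios of Hk3 to Hk1, Aldoa to Pkm2 and Pgd to Taldo1 overlapped between the groups. Aldoa outnumbered Pkm2 110.5 and 140.9 to 1 in Day 21 AM, against 223.9 and 140.6 to 1 in Pre AM.

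**Figure D3:**
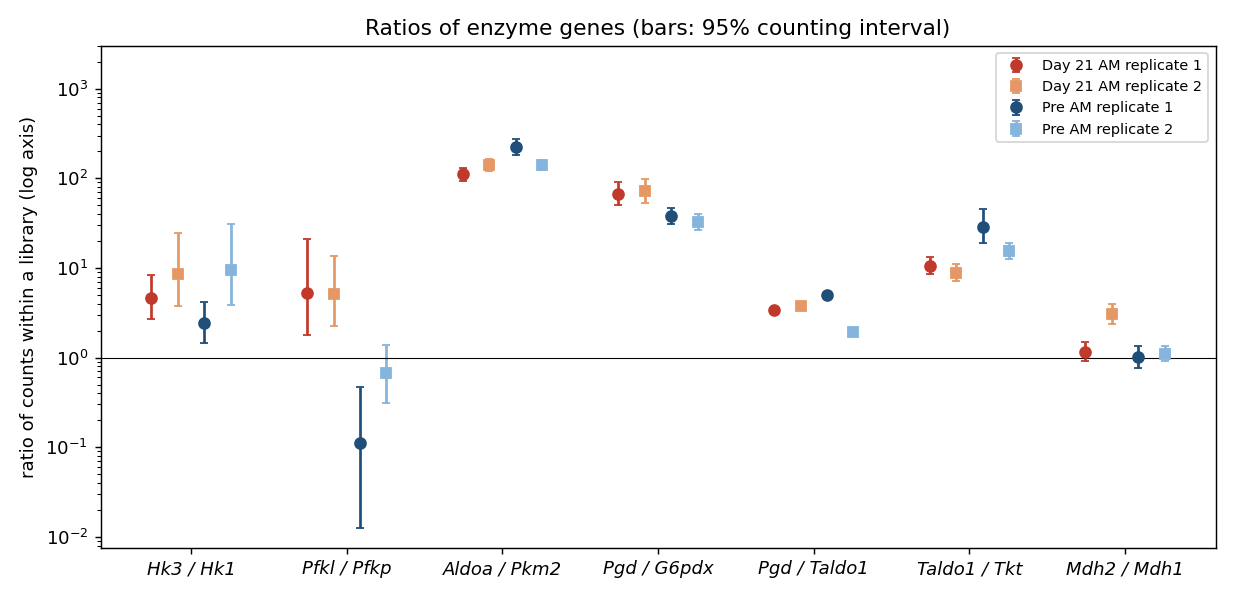
Ratio of the counts of 2 enzyme genes within each library (log axis) for 7 pairs, with 95% counting intervals as bars, Day 21 AM replicates in red and orange and Pre AM replicates in dark and light blue. Pfkl over Pfkp is 5.25 and 5.14 in Day 21 AM and 0.111 and 0.667 in Pre AM, and Pgd over G6pdx is 67.1 and 71.4 in Day 21 AM and 37.7 and 32.7 in Pre AM.

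The position of the tags along the transcript also varied between libraries, a pattern noticed in the data and described with no test. For 16 members with at least 10 placed counts in every library, the share of counts at the last NlaIII site was taken. Its median over the 16 members was 37.4% and 30.9% in Day 21 AM, against 56.4% and 53.0% in Pre AM. Over all 1125 genes with tags at both kinds of site it was 63.5% and 48.4% in Day 21 AM and 73.9% and 60.4% in Pre AM. The mean share was lower in Day 21 AM in 15 of 16 members, Idh1 being the exception, beside 72.8% of all such genes. In 9 of 16 members both Day 21 AM shares lay below both Pre AM shares, beside 26.8% of all genes. The median of the differences within a gene was -5.13 percentage points over the 16 members and -2.91 over the 1125 genes. Day 21 AM replicate 1 had a higher median share over the 1125 genes than Pre AM replicate 2.

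The shares divide the members into kinds. Aldoa, Pgd and Idh1 had 96.0% to 99.7% of their counts at the last site in every library. Pgam1, G6pdx and Sucla2 had at most 13.3% there, so almost all their counts came from sites that lie upstream on the transcript used. The main Sucla2 tag is at the last site of another Sucla2 transcript, and the main tags of Pgam1 and G6pdx also match another gene. Pgk1, with few counts, had 16.7% and 0% in Day 21 AM and 54.5% and 58.3% in Pre AM. For Ldha the share was 32.4% (exact 95% interval 24.9 to 40.7) and 13.3% (8.79 to 19.002) in Day 21 AM, against 55.7% (47.3 to 63.8) and 39.1% (34.3 to 44.0) in Pre AM. Taldo1 had 30.3% (27.3 to 33.3) and 20.8% (18.1 to 23.8) in Day 21 AM, against 40.2% (36.5 to 44.0) and 40.2% (37.9 to 42.6) in Pre AM. Pgls had 30.5% and 24.6% in Day 21 AM and 47.9% and 39.7% in Pre AM. Pkm2 had 51.0% and 58.3% in Day 21 AM and 77.9% and 61.7% in Pre AM. In these 4 genes both Day 21 AM libraries were the lower ones. The main upstream tags of Ldha, Pgls and Pkm2 are also at the last site of another transcript of their gene.

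The tags of a gene could thus point in different directions. The last-site tag of Ldha had 26.9 and 17.8 CPM in Day 21 AM against 40.7 and 65.8 CPM in Pre AM. Its exon 3 tag, which matches 8 genes, had 56.0 and 116.1 CPM in Day 21 AM against 32.4 and 100.1 CPM in Pre AM. The groups overlapped for that tag. With tags that match a single gene only, the log2 change of Ldha was -1.29 ± 0.67 (edgeR adjusted p = 0.908), against -0.16 with all tags. Taldo1 had 160.5 and 121.0 CPM at its last site in Day 21 AM against 136.0 and 272.5 CPM in Pre AM. Its exon 6 tag had 340.5 and 438.6 CPM in Day 21 AM against 184.6 and 383.7 CPM in Pre AM. For both of these Taldo1 tags the groups overlapped. Pgls had 18.3 and 20.6 CPM at its last site in Day 21 AM and 22.1 and 19.6 CPM in Pre AM, with overlapping groups. Its exon 1 tag had 41.7 and 63.4 CPM in Day 21 AM and 24.1 and 29.8 CPM in Pre AM. A log2 change (with 1 CPM added) below 0 at the last site and above 0 upstream was seen in 7 of 16 members (43.8%). That is near the 37.8% of all genes with both kinds of tag, so it is not particular to the members. Sucla2, with 2 and 0 last-site counts in Day 21 AM and 3 and 0 in Pre AM, and Pgk1 were included on few counts. For genes of this kind the sign of a level difference depends on which tag is counted.

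**Figure D4:**
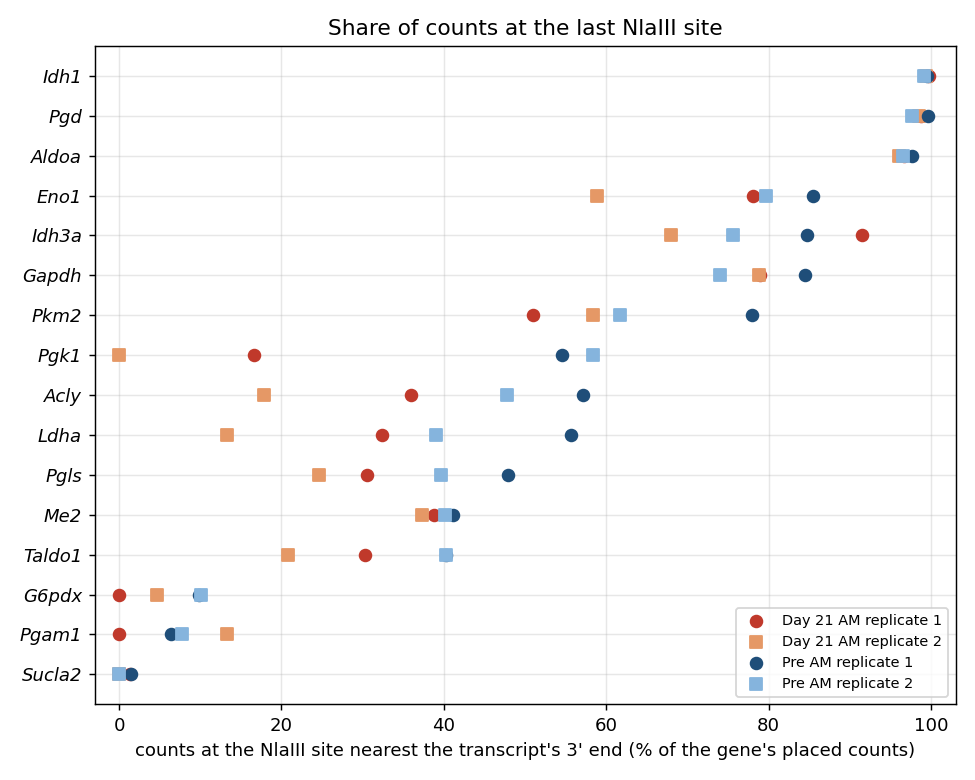
Share of a gene's placed counts at the NlaIII site closest to the transcript end (%, horizontal axis) for 16 enzyme genes in the 4 libraries, with Day 21 AM replicates in red and orange and Pre AM replicates in dark and light blue. For Ldha the shares are 32.4% and 13.3% in Day 21 AM and 55.7% and 39.1% in Pre AM, whereas Aldoa, Pgd and Idh1 lie at 96.0% or above in every library.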

How the data were processed

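Raw tag counts per 21-base tag were deposited by the authors, with a gene symbol and an accession for each tag; the values are whole numbers and differ in total, and the submitters' processing notes name mm9. The counting tool is not given in the sources used here. Members and lists were chosen with earlier results of these data known. All 30627 tags (15785 with counts) were summed per symbol. Groups were compared over all 4 libraries with edgeR 4.0.16 (R 4.3.3), quasi-likelihood test, TMM, filterByExpr (minimum count 10, minimum total 15), group as the only term, with Benjamini-Hochberg adjusted p (threshold 0.05) over 2979 genes. The common biological coefficient of variation came to 0.482, from 2 residual degrees of freedom. Replicates differed beyond counting noise, with a chi-square of 58.2 (Day 21 AM) and 77.2 (Pre AM) per degree of freedom. Every member is accounted for by the naming rule; the most abundant ones and those of smallest p have values in every library. Tags after CATG were matched to GENCODE M21 transcripts (GRCm38) on the sense strand: 30005 matched, 27730 to 1 gene, which held 81.9% and 80.3% of the counts in Day 21 AM and 72.0% and 69.9% in Pre AM. Each tag was placed on a transcript of its listed accession, or else the longest protein-coding one. That rule, the last-site shares with their minimum of 10 counts, the ratio pairs and the fit on tags that match 1 gene were chosen after values were seen. Alternatives were other scalings, filters and tests (DESeq2 1.42.0, limma 3.58.1), other ways to sum tags, the replicate number as a block, and each library left out. Intervals of shares and ratios are exact (Clopper-Pearson, 95%) and cover counting error only. The SE and the 95% interval of a log2 change were derived from the statistic of the edgeR test. PCR copies carry no molecular identifier.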

Additional observations from a re-analysis of the deposited data

How the results depend on the processing

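Of 17 alternatives, 16 were planned and 1, tags that match a single gene, was added after the data were seen. No tested member was called in any of them except Pfkl without Pre AM replicate 2. The number of genes called of all tested, 22 as reported, was 9 with scaling by total counts, 41 without a count filter, 41 with the likelihood ratio test, 12 with limma-voom, 9 with the most counted tag of each gene and 11 with tags that match a single gene. It ran from 9 (without Pre AM replicate 1) to 81 (without Pre AM replicate 2) with a library left out. With a replicate block it was 37, with 28 higher and 9 lower, against 20 and 2 in the fit without it. The deviations of the libraries numbered 1 in both groups had r = 0.540, but with only 2 pairs the numbers were not taken as a pairing, and the block called no member. Calls were split as 19 higher and 0 lower with upper-quartile scaling and 9 and 0 with total counts.

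The median log2 change of the glycolytic genes, 0.15, was 0.60 with limma-voom, -0.065 with total counts and 0.11 to 0.59 with a library left out. That of the citrate cycle genes, 0.01, was -0.21 with total counts and -0.16 to 0.18 with a library left out. The pentose phosphate median stayed positive in all 17 alternatives, at 0.33 to 0.70 with a library left out. Total counts moved the median of all genes to -0.29, and with them Hk1 had -0.065, Aldoa -0.11, Taldo1 -0.12, Suclg2 -0.22, Sucla2 -0.065, Mdh1 -0.19 and Acly -0.21. With a minimum count of 30, Suclg2 had -0.040, Mdh1 -0.0064 and Acly -0.041. With the most counted tag Ldha had 0.34, Ogdh -0.14 and Acly -0.94, and with tags that match a single gene Acly had -0.0024. With a library left out the log2 change of 13 members took both signs. It ran from -0.65 to 1.76 for Hk1, -0.27 to 0.55 for Aldoa, -0.63 to 0.59 for Ldha, -0.093 to 1.55 for Rpia, -0.28 to 0.74 for Taldo1, -2.35 to 0.51 for Cs and -0.59 to 0.18 for Idh3a. The range was -0.077 to 0.83 for Ogdh, -0.55 to 0.19 for Dlst, -0.16 to 0.25 for Suclg2, -0.31 to 0.83 for Sucla2, -0.23 to 0.41 for Mdh1 and -0.16 to 0.23 for Acly. The cause of these shifts was not tested.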
